A study of Mus musculus with 4 samples.

Results

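The 10 mouse genes that encode the pore-forming alpha1 subunits of voltage-gated calcium channels (Cacna1a, Cacna1b, Cacna1c, Cacna1d, Cacna1e, Cacna1f, Cacna1g, Cacna1h, Cacna1i and Cacna1s) were examined in RNA from sorted dorsal root ganglion cells. They were chosen by gene symbol, and all 10 were found among the 41388 genes listed for each library. The cells were EGFP-positive cells of C57BL/6 mice that carry an EGFP reporter of Ret, the receptor tyrosine kinase for ligands of the GDNF family. All 4 libraries share this reporter: the genotype label reads Tg(Ret-EGFP)SJ/, whereas the design text describes heterozygotes with EGFP knocked into the Ret locus. There was 1 female library (female A) and 3 male libraries (males A, B and C), each from the pooled lower thoracic to upper sacral ganglia of 1 animal, with 40 ganglia for the female and 20 for each male. Every library carries the stage P2, but the pool descriptions differ: female A and male A are said to come from a P2 mouse (the P2-mouse pair), males B and C from an embryo (the embryo pair). Age, litter and library preparation cannot be told apart within these pool descriptions. The female and male libraries, and the P2-mouse and embryo pairs, were the comparisons made.

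Each pore subunit carries the ion pathway, the voltage sensors and the binding sites of most channel drugs, and it sets the type of calcium current. The Cav1 subunits carry L-type current, which couples depolarisation to contraction, secretion and gene transcription. The Cav2 subunits carry the N-type, P/Q-type and R-type currents that trigger transmitter release at nerve terminals. The Cav3 subunits carry T-type current, which opens near the resting potential and shapes firing. In sensory neurons of the ganglion, N-type channels at the central terminals in the spinal cord are the target of the analgesic ziconotide, and the alpha2delta subunit that accompanies the pore is the target of gabapentin.

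Gene counts summed to between 17388493 (male A) and 28066448 (female A). Ret, the gene behind the sort, stood at 31.8 and 31.6 RPKM in the P2-mouse pair (female A, then male A) and at 37.0 and 32.7 in the embryo pair (male B, then male C), an order kept below. CPM are counts scaled to the size of the library, and RPKM are CPM per kilobase of exon. The 10 pan-sensory neuron markers were all detected and summed to between 7674 and 13315 CPM. Markers of other ganglion cells were detected too, with 8 Schwann cell genes at 2981 to 7606 CPM in sum and 6 fibroblast genes at 295 to 1515 CPM, while 6 macrophage genes summed to at most 4.49 CPM. Pmp22 held most of each Schwann cell sum, at 2719, 4218, 2471 and 2359 CPM. In bulk RNA, fewer cells of a type and less RNA per cell cannot be told apart, here and for every level below.

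Cacna1b, which encodes Cav2.2, the pore of the N-type channel, had the highest level of the family in every library. Its RPKM was 15.7 (female A), 12.8 (male A), 16.1 (male B) and 12.9 (male C), from counts of 4381, 2208, 3638 and 3198. The range was narrow, with the highest library 1.26-fold above the lowest, and each pair held 1 higher and 1 lower library. Cacna1b lay above 85.7% of the 25075 genes with a count in any library. It made up 76.2% and 75.2% of the summed RPKM of the 10 genes in the P2-mouse pair. In the embryo pair it made up 80.6% and 78.2%. Scaled to the longest coding transcript instead of all exon bases, these shares were 69.6% and 68.6%, and 74.7% and 71.9%, in the same order. The gene lies on chromosome 2, chr2:24603887-24763152 (GRCm38, minus strand), with 9942 exon bases and no annotated exon overlap with another gene.

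Cacna1b was the member with the highest level, and Cacna1d the 1 member that passed the main test between the pairs of libraries. For this reason their sequences just upstream of an annotated start are shown. Both are 250-base windows from RefSeq (GRCm38.p6), read 5′ to 3′ on the minus strand up to the base before the start, with each CG dinucleotide in capitals. The Cacna1b window is chr2:24763153-24763402, and the Cacna1d window is chr14:30353487-30353736. Cacna1d has another annotated start at chr14:30491156, so this window lies inside the annotated span of the gene.

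Cacna1b: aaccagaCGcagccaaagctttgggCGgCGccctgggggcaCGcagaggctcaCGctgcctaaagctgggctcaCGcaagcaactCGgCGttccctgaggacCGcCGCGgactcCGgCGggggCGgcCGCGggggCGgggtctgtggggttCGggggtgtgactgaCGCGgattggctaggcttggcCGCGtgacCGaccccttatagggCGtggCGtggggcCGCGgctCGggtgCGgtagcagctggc

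Cacna1d: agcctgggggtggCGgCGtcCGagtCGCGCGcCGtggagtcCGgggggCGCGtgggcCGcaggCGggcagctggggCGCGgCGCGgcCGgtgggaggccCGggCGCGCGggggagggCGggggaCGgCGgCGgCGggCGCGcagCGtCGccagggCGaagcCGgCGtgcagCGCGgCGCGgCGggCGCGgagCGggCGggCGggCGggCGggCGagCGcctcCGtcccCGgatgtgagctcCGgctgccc

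The Cacna1b window was 72.0% G or C and held 29 CG dinucleotides, and 6.78% of the 32851 RefSeq windows of the same length held as many. The Cacna1d window was 86.4% G or C and held 50, a number reached by 0.0944% of windows. The median window was 52.4% G or C and held 6 CG dinucleotides. GC boxes (GGGCGG, on either strand) numbered 3 in the Cacna1b window and 5 in the Cacna1d window, and 32.7% of all windows held at least 1. The Cacna1d window at the other start (chr14:30491157-30491406), which lies wholly in annotated exon sequence and is not printed, differed from it, with 39.6% G or C, 2 CG dinucleotides (81.2% of windows hold as many) and 3 copies of TATAAA. Neither printed window held TATAAA, which 12.4% of windows hold, or the cAMP response element TGACGTCA, which 1.55% hold. Windows were found for 7 of the 10 members. The libraries measured RNA alone, so these sequences are context and no binding or promoter activity was measured.

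The other Cav2 members were far lower than Cacna1b. Cacna1a, which encodes Cav2.1, the pore of the P/Q-type channel, stood at 0.736 (female A), 1.04 (male A), 0.900 (male B) and 0.749 RPKM (male C). Male A was the highest, and the pairs of libraries overlapped. Cacna1a lies at chr8:84388440-84640246 (plus strand), and 435 of its 11418 exon bases overlap Gm16183 on the opposite strand, for which no library held more than 9 counts. Cacna1e, which encodes Cav2.3, the pore of R-type current, stood at 0.349 (female A), 0.158 (male A), 0.293 (male B) and 0.235 RPKM (male C). Its libraries differed most within the P2-mouse pair. Cacna1e lies at chr1:154390731-154884501 (minus strand), and its 24813 exon bases, the most in the family, divide its count into a low RPKM; its CPM were 8.66, 3.91, 7.28 and 5.82.

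Cacna1c, which encodes Cav1.2, the widely expressed L-type pore, was second in the family in every library. Its RPKM was 2.15 (female A), 1.69 (male A), 1.55 (male B) and 1.46 (male C). Both P2-mouse libraries were above both embryo libraries, by a gap between male A and male B that is smaller than the difference between female A and male A. Cacna1c lies at chr6:118587240-119196418 (minus strand) with 21191 exon bases. Cacna1d, which encodes Cav1.3, an L-type pore that opens at less depolarised potentials, stood at 0.648 (female A), 0.635 (male A), 0.205 (male B) and 0.222 RPKM (male C). The P2-mouse libraries were alike, the embryo libraries were alike, and the pairs did not overlap. Such separation, seen for Cacna1c too, was common. On CPM adjusted for library composition, the pairs did not overlap for 73.2% of all tested genes (37.4% higher in the P2-mouse pair). Cacna1d lies at chr14:30039949-30491156 (minus strand), and 518 of its 9242 exon bases (5.60%) overlap Chdh on the opposite strand, for which no library held more than 9 counts.

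Cacna1h, which encodes Cav3.2, the T-type pore known from nociceptors and from mechanoreceptors of down hairs, was the only Cav3 member with more than 3 counts in any library. Its RPKM was 0.931 (female A), 0.660 (male A), 0.840 (male B) and 0.901 (male C). Male A was the lowest and the other libraries lay close together. Cacna1h lies at chr17:25374285-25433783 (minus strand) with 9763 exon bases, of which 158 overlap Tpsg1 on the opposite strand, and no library held more than 1 count for Tpsg1.

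**Figure D1:**
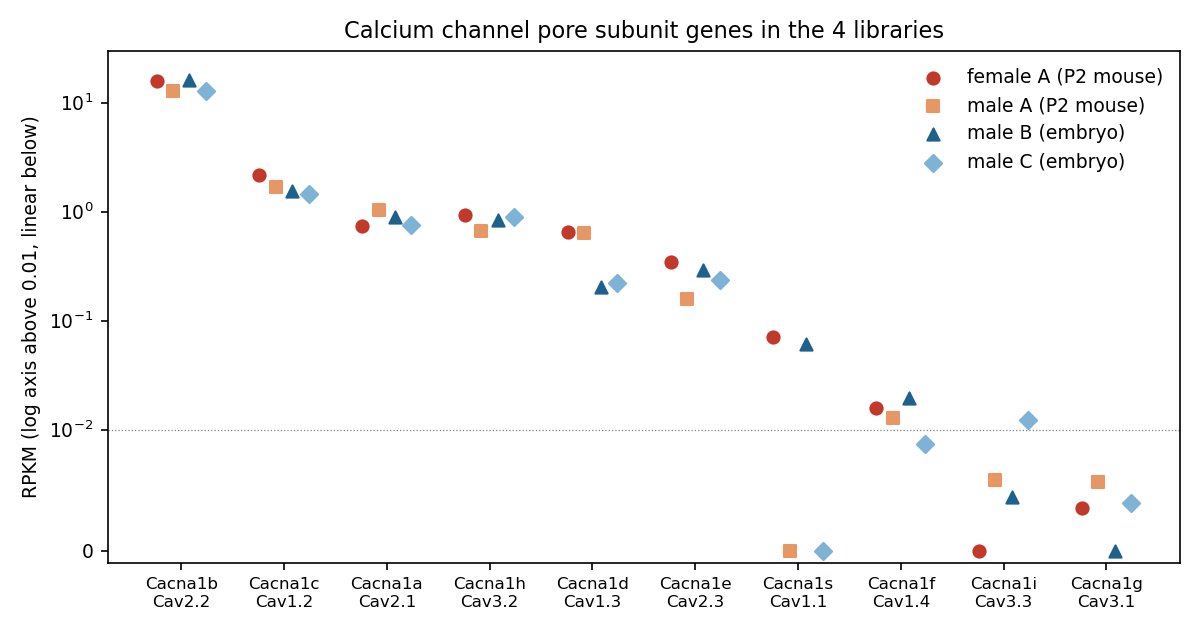
RPKM of the 10 pore subunit genes (y axis, logarithmic above 0.01 and linear below) in each of the 4 libraries (1 point per library), ordered by the mean. Cacna1b lies between 12.8 and 16.1 RPKM, the next 5 genes between 0.158 and 2.15, and the other 4 genes below 0.1.

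The other 4 members held at most 13 counts in any library, against at least 43 in each library for the 6 above. Cacna1s, which encodes Cav1.1, the pore and voltage sensor of skeletal muscle, had 13 counts in female A and 9 in male B, and 0 in males A and C. Its 95% counting interval was 0.247 to 0.792 CPM in female A and 0.182 to 0.754 in male B, and a floor of 3 counts allows up to 0.173 CPM in male A and 0.120 in male C. The 7 skeletal muscle markers summed to 5.99 and 6.21 CPM in the P2-mouse pair and 11.2 and 10.9 CPM in the embryo pair. Acta1 held most of each sum, at 4.92 and 4.37 CPM, and at 9.13 and 7.75 CPM. The part of muscle RNA in the Cacna1s counts was not tested. Of the 50-base words in Cacna1s transcripts, 16.3% also occur in transcripts of Gm37759, so its few counts are uncertain. Cacna1f, which encodes Cav1.4, the L-type pore of photoreceptor terminals, had 4, 2, 4 and 2 counts in the same order. Cacna1i, which encodes Cav3.3, had 0, 1, 1 and 3 counts. Cacna1g, which encodes Cav3.1, had 1, 1, 0 and 1. The 95% counting intervals of these 3 genes reached at most 0.452 CPM in any library.

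The order of the mean RPKM was Cacna1b, Cacna1c, Cacna1a, Cacna1h, Cacna1d, Cacna1e, Cacna1s, Cacna1f, Cacna1i and Cacna1g. The mean of Cacna1b was 8.39 times that of Cacna1c, and that of Cacna1c 2.00 times that of Cacna1a, with no overlap between libraries. RPKM divides by all exon bases. Per kilobase of the longest coding transcript, the mean CPM was 14.7 for Cacna1b, 2.76 for Cacna1c and 1.23 for Cacna1a. Cacna1a and Cacna1h overlapped, and each was the higher in 2 of 4 libraries. Cacna1d and Cacna1e overlapped too, with Cacna1d higher in the P2-mouse libraries and Cacna1e higher in the embryo libraries. The ranges of Cacna1h and Cacna1d did not overlap, at a ratio of means of 1.95. The 4 lowest genes could not be ordered beyond their spread.

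By channel class, the Cav2 genes made up 81.5% and 82.3% of the summed RPKM in the P2-mouse pair and 86.6% and 84.2% in the embryo pair. The Cav1 genes summed to 2.88 and 2.34 RPKM in the P2-mouse pair and to 1.84 and 1.69 RPKM in the embryo pair, where their shares were 9.17% and 10.3%. The Cav3 genes made up 4.53%, 3.95%, 4.22% and 5.55%. Thus the Cav1 sum was higher and the Cav2 share lower in both P2-mouse libraries, whereas the Cav3 shares overlapped. The summed CPM of the family was 234, 191, 222 and 185, with no separation of the pairs. Shares of a sum are tied to each other and depend on the gene length used, and no test was run on them.

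**Figure D2:**
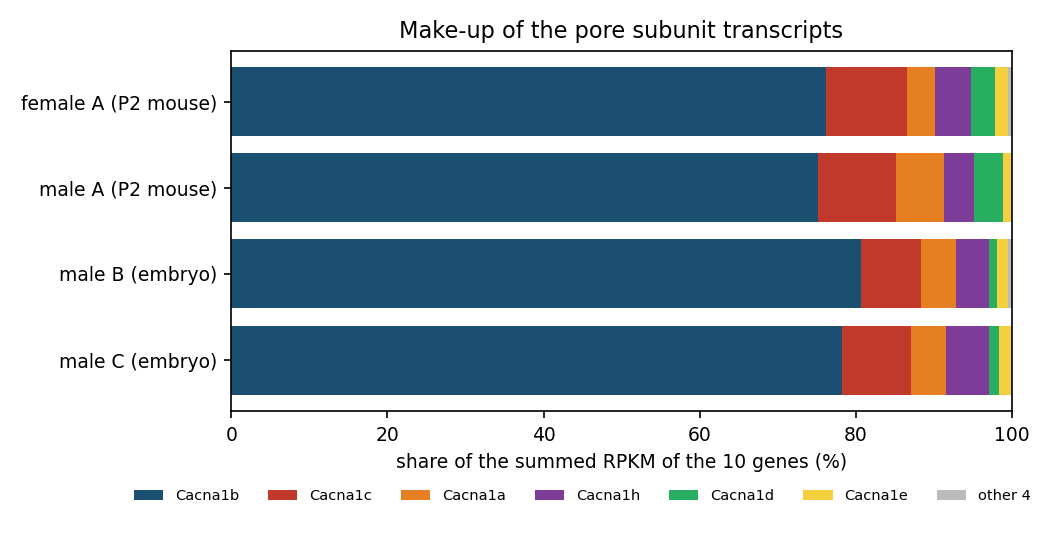
Share of each gene in the summed RPKM of the 10 genes (x axis, percent), 1 bar per library; the grey end holds the 4 genes with few counts. Cacna1b takes 75.2% to 80.6%. The Cacna1d segment is wider in the P2-mouse libraries (3.14% and 3.74%) than in the embryo libraries (1.03% and 1.34%).

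Whether the pore subunits differ between the sexes was asked with female A against the 3 males. None of the 7 members tested passed an adjusted p of 0.05 (edgeR quasi-likelihood F test, Benjamini-Hochberg adjustment over 16708 genes), where 0% of all tested genes passed. An unadjusted p under 0.05 was found for 129 genes, and DESeq2 called 5 of all genes and no member. That test takes the spread of the males for the single female as well. The males span both pool descriptions, so their SD and the intervals below include any difference between the pools. The variation between libraries fitted by edgeR over all genes (biological coefficient of variation) was 0.394. With the pool description as a term it was 0.195. On the scale of CPM divided by TMM factors, which adjust for library composition, Cacna1b was 149 in the female and 141 ± 22.9 (SD, n = 3) in the males. Its female-to-male fold was 1.05, with a 95% interval of 0.595 to 1.87. Cacna1c was 43.5 in the female and 33.7 ± 1.29 (SD, n = 3) in the males, a fold of 1.29 (0.731 to 2.27). Cacna1h had a fold of 1.09 (0.521 to 2.26) and Cacna1a of 0.775 (0.386 to 1.56). Each of these intervals runs from below to above 1, so neither a difference nor equal levels were shown. Cacna1s entered the test through its counts in female A and male B, and no fold is given for it. Cacna1f, Cacna1g and Cacna1i had too few counts to be tested.

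On TMM-scaled CPM, the female lay outside the range of the males for 4 of the 6 members with higher counts (above for Cacna1c, Cacna1d and Cacna1e, below for Cacna1a), where 44.0% of all tested genes did so, 21.8% above and 22.1% below. For Cacna1d the female was barely above male A, at 5.71 against 5.68. Their 95% counting intervals in CPM overlapped widely (5.11 to 6.96 and 4.78 to 7.12). On the TMM scale Cacna1h was inside, at 8.67 in the female against 9.15 in male C, but above every male in RPKM. Cacna1e showed the widest gap between the P2-mouse libraries, 8.66 CPM in female A (95% counting interval 7.60 to 9.82) and 3.91 CPM in male A (3.04 to 4.96). With the pool description as a term no member was called, where 0.0239% of all tested genes were. The log2 fold change of Cacna1e was then 1.13 (SE 0.379, unadjusted p 0.0238 in edgeR's quasi-likelihood test), and its adjusted p was 1.00. Cacna1d had a log2 fold change of 0.81 (SE 0.698) against all males and of 0.01 (SE 0.410) with that term.

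**Figure D3:**
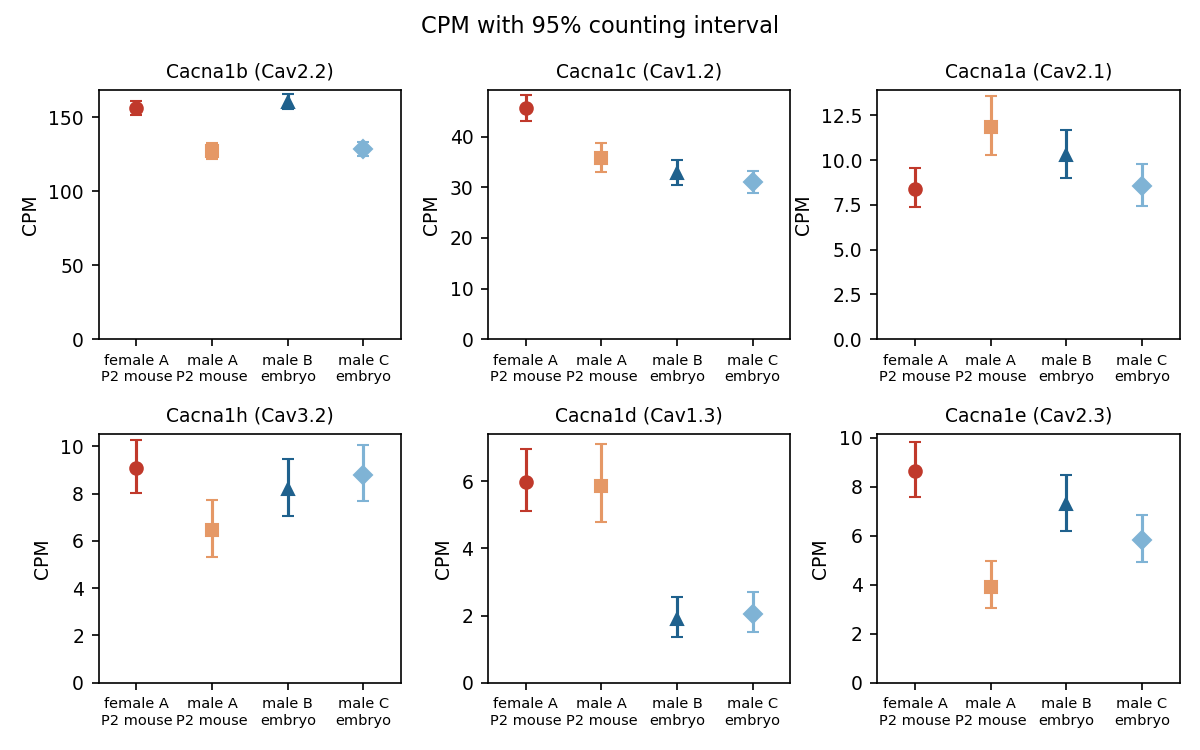
CPM (y axis, from 0) of the 6 genes with at least 43 counts, 1 point per library, with bars for the 95% Poisson interval, which covers counting error only. Cacna1d is high in both P2-mouse libraries (5.99 and 5.87 CPM) and low in both embryo libraries (1.90 and 2.05 CPM); Cacna1b and Cacna1e vary within the pairs.

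Between the pairs of libraries, Cacna1d was the 1 member called, and it was higher in the P2-mouse pair. Scaled by TMM factors it stood at 5.71 and 5.68 CPM in female A and male A, and at 1.97 and 2.13 CPM in males B and C. The P2-mouse libraries were thus 2.77-fold above the embryo libraries (95% interval 1.77 to 4.35), a log2 fold change of 1.47 (SE 0.279) with an adjusted p of 0.0044 (edgeR quasi-likelihood F test over 15568 genes). Of the 6 members tested (all but Cacna1f, Cacna1g, Cacna1i and Cacna1s), 1 was called higher and none lower, where 22.3% of all tested genes were called higher, 20.0% lower and 42.3% in either direction. A count of 1 in 6 is therefore no more than the background. A larger log2 fold change than that of Cacna1d was found for 6.98% of tested genes. With sex as a term together with corrections for GC content and exon length, the log2 fold change was 1.34 with an edgeR adjusted p of 0.076, so the call was lost (5.24% of all genes were called higher there), and with a minimum mean of 5 CPM the gene was not tested.

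Cell type markers were read in the same comparison, where 22.3% of all tested genes were called higher and 20.0% lower. In the P2-mouse libraries 7 of 8 Schwann cell markers were called higher (sums of 4755 and 7606 CPM against 2981 and 2992), as were 5 of 6 fibroblast markers (1374 and 1515 CPM against 295 and 318). The Schwann cell marker not called was Pmp22 (log2 fold change 0.41). It held most of each Schwann cell sum, at 2719 and 4218 CPM against 2471 and 2359. No marker of either list was at 0 in any library. Satellite glia markers went both ways, with 2 of 6 called higher and 2 lower (Cdh19 2.83 and Fabp7 -1.30 on the log2 scale). Of 10 pan-sensory neuron markers, 7 were called lower and 1 higher (8097 and 7674 CPM against 13315 and 12459). Markers of neuron subtypes were mostly lower: 5 of 6 peptidergic nociceptor genes, 3 of 5 nonpeptidergic nociceptor genes and 5 of 7 myelinated mechanoreceptor and proprioceptor genes were called lower and none higher. Of 4 C-fibre low-threshold mechanoreceptor genes, 2 were lower and 1 higher. The part of these markers in the Cacna1d difference was not tested.

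The other 5 tested members were not called in this comparison. Cacna1e was called lower in 1 alternative added after the data were seen, sex as a term with GC and length offsets scaled on the uncorrected counts (log2 fold change -1.57, edgeR adjusted p 0.037). Cacna1b had a fold of 0.905 (95% interval 0.723 to 1.13), with 149 and 123 TMM-scaled CPM in the P2-mouse libraries and 167 and 134 in the embryo libraries. Its libraries thus differed more within each pair than between the pairs. Cacna1c, the other expressed L-type gene, had a log2 fold change of 0.24 (95% interval -0.11 to 0.59). Its TMM-scaled level was 43.5 and 34.7 CPM against 34.2 and 32.3. Cacna1h had a fold of 0.848 (0.579 to 1.24), Cacna1a of 0.990 (0.670 to 1.46) and Cacna1e of 0.898 (0.499 to 1.62). On TMM-scaled CPM, for 2 of the 6 members, Cacna1c and Cacna1d, both P2-mouse libraries lay above both embryo libraries, where 73.2% of all tested genes did not overlap (37.4% higher and 35.8% lower). The median size of the log2 fold change was 0.20 over the 6 members and 0.55 over all tested genes.

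The tested genes share the same 4 libraries and are not independent replicates. Across them, the fold change between the pairs ran with base composition and length. Spearman coefficients were -0.44 for GC content and 0.25 for exon length over 15474 genes. With offsets for both, the log2 fold change of Cacna1d was 1.32 (SE 0.275) with an edgeR adjusted p of 0.011, where 15.4% of all genes were called higher. That of Cacna1e was -0.74 (SE 0.336) with an adjusted p of 0.13, and that of Cacna1c turned to -0.12 (SE 0.132). With sex as a term, which rests on 1 residual degree of freedom, Cacna1d kept a log2 fold change of 1.47 (SE 0.355) with an edgeR adjusted p of 0.041, where 13.3% of all genes were called higher. The small log2 fold changes of Cacna1a and Cacna1c therefore had no settled direction.

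**Figure D4:**
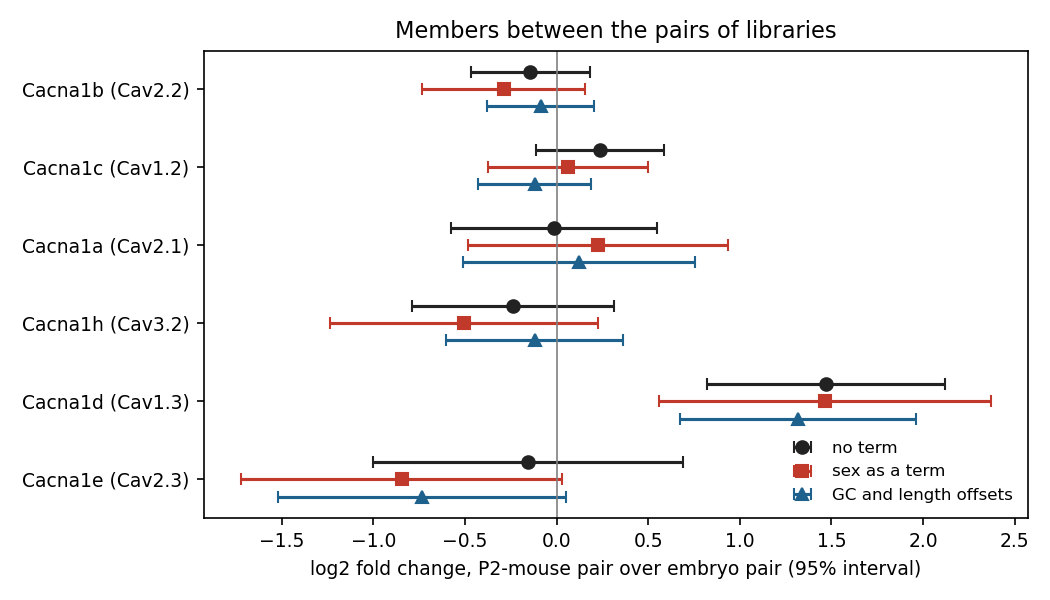
Log2 fold change of the P2-mouse pair over the embryo pair (x axis) with its 95% interval for the 6 tested genes, from edgeR fits with no term, with sex as a term, and with GC and length offsets. The interval of Cacna1d lies above 0 in the 3 fits shown (estimates 1.32 to 1.47), and the intervals of the other genes include 0.

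The genes of proteins that work with the pore subunits were measured in the same comparison, in which 22.3% of all tested genes were called higher and 20.0% lower. No list was tested against another or against all genes. The list values, and those of the cell type markers above, come from the fit without GC and length offsets. Of 16 auxiliary subunit genes, 11 were tested; the P2-mouse pair had 2 called higher and 5 called lower, with a median log2 fold change of -0.57 against 0.02 over all tested genes. Cacnb3, a beta subunit that carries the pore to the membrane, had the highest RPKM of the list at 29.8 and 29.3 in the P2-mouse libraries against 38.1 and 42.7, a log2 fold change of -0.57 (SE 0.102, edgeR adjusted p 0.0035). Cacna2d1, which encodes the alpha2delta subunit that gabapentin binds, moved the other way, with 23.1 and 22.6 RPKM against 12.1 and 10.9 and a log2 fold change of 0.88 (SE 0.098, edgeR adjusted p 0.00045). Cacnb4, another beta subunit, had 7.86 and 7.74 RPKM against 6.51 and 6.35 and did not pass (log2 fold change 0.16). The largest called rise was that of the beta subunit gene Cacnb2 (log2 fold change 2.01, SE 0.633, edgeR adjusted p 0.036). Its levels were low, at 0.0833 and 0.0223 RPKM (0.750 and 0.201 CPM) in the embryo libraries. In the P2-mouse libraries they were 0.265 and 0.192 RPKM. The largest called fall was that of Cacng3, a gamma subunit gene better known for its part in AMPA receptor traffic (-1.45).

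Of 22 genes for proteins that bind or regulate the channels, 19 were tested; 4 were called higher and 7 lower, with a median log2 fold change of -0.48. Dpysl2, whose product CRMP2 binds Cav2.2, was by far the most abundant at 2323 to 3755 RPKM and had a log2 fold change of -0.64 (SE 0.091, edgeR adjusted p 0.0012). Ncs1, a neuronal calcium sensor, stood at 77.9 and 64.0 RPKM against 175 and 178 (log2 fold change -1.43). Stx1a, the release machinery protein syntaxin that binds Cav2 channels, stood at 76.5 and 66.1 RPKM against 134 and 142 (log2 fold change -1.07). Gem, a small GTPase that inhibits high-voltage-activated channels, showed the largest called rise, from 0.944 and 1.41 RPKM in the embryo libraries to 5.03 and 5.99 in the P2-mouse libraries (edgeR adjusted p 0.00092). Stac2, an adaptor of L-type channels, showed the largest called fall (-1.92).

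The remaining lists cover what happens to calcium after entry. Of 14 genes for calcium stores and store-operated entry, 12 were tested, 1 was called higher and 1 lower, and the median log2 fold change was -0.01. These were Itpr3, an inositol trisphosphate receptor (log2 fold change 2.71, with 1.74 and 2.00 RPKM against 0.294 and 0.232), and Stim1, the sensor of store filling (-0.51). Atp2a2, the calcium pump of the endoplasmic reticulum, had the highest level of the list at 16.6 to 24.5 RPKM and did not pass. Orai2 stood at 5.48 and 5.49 RPKM against 6.09 and 5.70 and did not pass either (-0.22). All 9 genes for calcium extrusion were tested, with 2 called higher and 3 lower and a median of -0.57. The plasma membrane pump Atp2b1 (0.77) and the exchanger Slc24a2 (0.82) were higher, and the exchanger Slc8a3 had the largest called fall (-1.95). Atp2b4 stood at 12.2 and 10.6 RPKM against 10.3 and 11.5 and did not pass (-0.05). All 10 calcium buffer and sensor genes were tested, with 2 called higher and 6 lower and a median of -1.03. Parvalbumin (Pvalb), a buffer of proprioceptors, is also in the myelinated mechanoreceptor and proprioceptor marker list (median log2 fold change -1.03). It had the largest called fall, with 0.719 and 0.939 RPKM in the P2-mouse libraries and at least 7.83 RPKM in the embryo libraries (log2 fold change -3.85), and calbindin (Calb1) the largest called rise (1.29). S100b, also a glial gene, fell (-1.52), Ncald fell (-0.53), and Hpcal1, the most abundant, ranged from 151 to 303 RPKM and did not pass. The part of the cell type markers above in these list values was not tested.

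**Figure D5:**
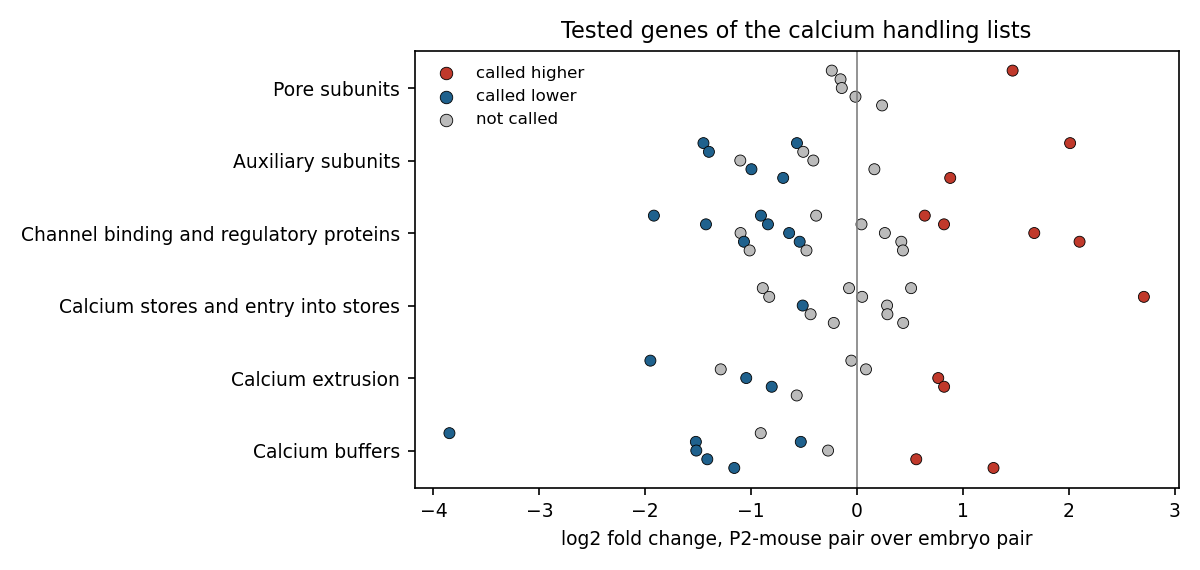
Log2 fold change of the P2-mouse pair over the embryo pair (x axis) for each tested gene of the pore subunits and the 5 calcium handling lists, 1 point per gene, spread vertically for visibility; red and blue points passed an edgeR adjusted p of 0.05. Among the pore subunits Cacna1d is the 1 called point; 42.3% of all tested genes were called, and differences between lists were not tested.

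The genes with the profile most like that of Cacna1b over the 4 libraries were Rint1, Zfhx3, Dus3l, Spock1 and Foxn3, with a root mean square difference of 0.035 to 0.039 in centred log2(TMM-scaled CPM + 1). Of 6774 other genes with a mean of at least 20 CPM, 105 lay within 0.1. For Cacna1d they were Tnks2, Rhot1, Slmap, Ddx5 and Zfp866, at 0.013 to 0.028, with 177 of 6775 genes within 0.1. Tnks2, the nearest, stood at 115 and 113 TMM-scaled CPM in the P2-mouse libraries and 51.0 and 53.4 in the embryo libraries. With 4 libraries, many genes share a profile, and the added 1 CPM compresses the profile of Cacna1d, whose own level is low.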

How the data were processed

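RNA of sorted Ret-EGFP-positive ganglion cells was reverse transcribed and amplified from a low input with a SMARTer kit, per the labels' protocols. Per the submitters' processing notes, the authors assigned reads to genes with featureCounts 1.4.5 (Subread) on GRCm38.p2, and the whole numbers in the deposited files are these counts. The deposited CPM equal the count over the library's sum and the deposited RPKM the CPM per kilobase of exon, which recomputation here matched. Not given in the sources used here are the aligner, annotation release and strand setting, so reads of genes that overlap on opposite strands may not have been parted. The libraries carried no molecular identifiers, and count intervals (95%, exact Poisson) and the floor of 3 counts cover counting error only.

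Of 41388 genes, 40254 (97.3%) were given a symbol and a GC content from GENCODE M21 (GRCm38). The longest coding transcripts and the words shared between transcripts came from the same release. Gene coordinates, exon lengths and exon overlaps were those of the deposited annotation, whose release is not given. RPKM ordered the members. Counts were tested with edgeR 4.0.16 in R 4.3.3 (quasi-likelihood F test, TMM factors 0.961 to 1.05, filterByExpr with minimum count 10 and minimum total 15, Benjamini-Hochberg threshold 0.05) over all genes, with 2 residual degrees of freedom. Intervals of fold changes use the moderated degrees of freedom. Alternatives were other size factors and filters, DESeq2 1.42.0, limma-voom (limma 3.58.1), the other label as a term, offsets for GC content and exon length (mgcv 1.9.3) and each library left out. The scripts were tested on simulated counts with a fixed dispersion. For the sex comparison these counts held no difference between the pools, so they do not check that test under such a difference. The members, lists and alternatives were chosen with earlier results of these data known. Named were all members, the 3 genes with the highest mean RPKM in each calcium handling list with its largest called rise and fall, and the 5 genes most like Cacna1b and Cacna1d; the marker lists beyond those given in the report were not used. No protein sequences were used here.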

Additional observations from a re-analysis of the deposited data

How the results depend on the processing

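No paired analysis was possible because the groups share fewer than 2 replicate letters, so no replicate block could be fitted. In the comparison of the sexes no member was called under any alternative, except 1 (Cacna1d) without male A, when sex and pool description are the same contrast (log2 fold change 1.48, edgeR adjusted p 0.038). Over all genes, no filter called 1 higher and 1 lower, DESeq2 1 and 4, and the pool description as a term 0 and 4; with a male left out, 1 to 1935 were called higher and 4 to 1681 lower, the highest counts without male A. There Cacna1b (-0.0069) and Cacna1h (-0.023) changed sign.

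Between the pairs, Cacna1d was called under every alternative that tested it, leaving out each library included (log2 fold change 1.41 to 1.48), except for sex as a term together with GC and length offsets. The offsets were first scaled with TMM factors of the uncorrected counts, which lowered the median log2 fold change of all genes to -0.19, and after this was seen the factors were taken from the corrected counts (median 0.03); the combination with sex was also chosen after seeing the data. In the first form 1496 genes were called higher and 4036 lower, against 2389 and 2507 in the second. With sex as a term in the first form these were 565 and 1683, with 0 members higher (Cacna1d 1.12, edgeR adjusted p 0.096) and 1 lower (Cacna1e -1.57, edgeR adjusted p 0.037). In the second form they were 811 and 801, with 0 members higher and Cacna1e at -1.35 (adjusted p 0.060). Sex as a term alone gave 2064 and 1615. A minimum mean of 5 CPM gave 0 members higher, because Cacna1d was not tested. With a library left out, 1935 to 3630 genes were higher and 1681 to 3311 lower.

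Of the 5 tested members not called between the pairs, Cacna1a, Cacna1b, Cacna1c and Cacna1e changed sign under an alternative, and Cacna1h stayed lower. With a library left out, Cacna1e ranged from -0.84 without female A to 0.28 without male A, and Cacna1b from -0.34 without male C to 0.015 without male B. Cacna1c was -0.12 with offsets and -0.23 with sex added (-0.34 and -0.45 in the first form). Cacna1a was 0.0047 with the minimum of 5 CPM, 0.12 with offsets, 0.23 with sex, 0.44 with both (0.22 in the first form), and with a library left out from -0.28 without male A to 0.23 without female A. The cause of these changes was not tested. By CPM, without length, Cacna1e ranked above Cacna1d, and without male A Cacna1h ranked above Cacna1a. With 43 to 168 counts, Cacna1d has wide counting intervals, and members under 14 counts could not be compared.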
